A study of Mus musculus with 4 samples.

Results

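The genes studied here are 41 genes of DNA replication and nucleotide supply, out of 32285 genes in each of the mRNA count matrices of the series. They were chosen as a list of named genes, without use of their measured values. By role they are the replicative helicase (*Mcm2* to *Mcm7* and *Mcm10*), origin licensing (*Orc1*, *Orc6*, *Cdc6*, *Cdt1* and the inhibitor *Gmnn*), helicase activation (*Gins1* to *Gins4* and *Cdc45*), primase and polymerase alpha (*Pola1*, *Prim1*, *Prim2*), the sliding clamp and its loader (*Pcna*, *Rfc2* to *Rfc5*), single-strand binding (*Rpa1* to *Rpa3*), Okazaki fragment processing (*Lig1*, *Fen1*), nucleotide supply (*Dut*, *Rrm1*, *Rrm2*, *Tyms*, *Tk1*), chromatin and DNA methylation (*Hells*, *Uhrf1*, *Dnmt1*), histone mRNA (*Slbp*), and the checkpoint and control of licensing (*Clspn*, *Dtl*). Their levels were followed across B-cell states, and above all between cycling germinal center (GC) cells and cycling plasmablasts.

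The study asked how DOCK8, a protein that activates the GTPase CDC42, acts within GC B cells. MD4 B cells, whose transgenic receptor binds hen egg lysozyme (HEL), were moved into CD45.1+ wild-type recipients that were immunized with HEL-coupled sheep red blood cells, and HEL+ CD95+ splenic cells were taken on day 8. The CD45.1+ MD4 cells were *Dock8* wt/wt in all 6 recipients and carried no BCL2 transgene. The CD45.2+ MD4 cells of the same recipients carried a BCL2 transgene active in B cells and were *Dock8* wt/wt in 3 mice and *Dock8* cpm/cpm, homozygous for an ENU-induced allele, in the other 3. Cells of the 6 mice were marked by hashtag antibodies, pooled and sorted by CD45 allotype, with 1 mRNA library and 1 hashtag library per sort. The sort and its library can therefore not be told apart, and the replicate in every test is the mouse.

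Before a cell divides, it loads the MCM helicase onto replication origins in G1, with the help of ORC, CDC6 and CDT1, and fires those origins in S phase through CDC45 and the GINS complex. Ribonucleotide reductase, thymidylate synthase, thymidine kinase and dUTPase supply and clean the pool of deoxynucleotides from which the new strands are built. Many of these genes are transcribed under E2F factors around the start of S phase. Dark zone GC B cells are among the fastest dividing cells of a mammal, and plasmablasts are antibody-secreting cells that still divide before they become non-dividing plasma cells.

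To show the kind of control sequence that the list carries, promoter windows were read from RefSeq for mouse build GRCm38.p6, from 250 bases before to 50 bases after each start site. Windows were found for 34 members. The 7 members without one are *Mcm4*, *Gmnn*, *Gins1*, *Gins2*, *Gins4*, *Prim2* and *Rfc2*. An E2F-type match was any of TTTGGCGC, TTTCGCGC, TTTCCCGC or TTTGCCGC on either strand. It was found in at least 1 window of 16 of these 34 members (47.1%), against 704 of 27025 genes with a window (2.6%). A CHR-type match, TTTGAA on either strand, was found in 5 of the 34 members (14.7%) and in 20.2% of all genes with a window. Such a match is a run of letters, not a bound site. As examples, the windows of *Mcm5*, *Hells*, *Rrm2* and *Tyms* are given 5′ to 3′ on the gene's own strand, with E2F-type matches in capitals. The *Mcm5* window is chr8:75109259-75109558 (plus strand), that of *Hells* chr19:38930740-38931039 (plus), that of *Rrm2* chr12:24708004-24708303 (plus) and that of *Tyms* chr5:30073576-30073875 (minus). By the RefSeq start sites, the last 50 bases of each lie within the transcribed gene. The GENCODE M21 annotation differs for each of them. *Mcm5* starts there at 75109569, after its window, and *Tyms* at 30073617, inside those bases. *Hells* starts at 38930915 and *Rrm2* at 24708241, both in the window ahead of those bases.
Mcm5: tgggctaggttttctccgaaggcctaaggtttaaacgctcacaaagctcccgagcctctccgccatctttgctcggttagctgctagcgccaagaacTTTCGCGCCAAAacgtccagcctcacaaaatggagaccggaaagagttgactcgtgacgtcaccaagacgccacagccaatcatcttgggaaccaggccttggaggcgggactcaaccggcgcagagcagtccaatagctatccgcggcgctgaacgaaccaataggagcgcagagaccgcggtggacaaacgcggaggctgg
Hells: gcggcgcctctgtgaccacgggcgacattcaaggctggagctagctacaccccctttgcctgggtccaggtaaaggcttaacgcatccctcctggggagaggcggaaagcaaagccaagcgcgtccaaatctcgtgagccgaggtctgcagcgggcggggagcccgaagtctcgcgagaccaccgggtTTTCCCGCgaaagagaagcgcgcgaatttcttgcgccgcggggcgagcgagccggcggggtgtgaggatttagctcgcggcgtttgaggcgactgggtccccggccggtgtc
Rrm2: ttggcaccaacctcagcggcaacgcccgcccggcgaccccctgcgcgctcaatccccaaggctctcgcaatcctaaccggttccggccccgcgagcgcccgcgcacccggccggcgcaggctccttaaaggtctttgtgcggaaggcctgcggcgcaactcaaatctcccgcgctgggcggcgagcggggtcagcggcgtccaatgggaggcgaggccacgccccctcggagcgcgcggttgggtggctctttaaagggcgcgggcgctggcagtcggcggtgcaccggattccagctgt
Tyms: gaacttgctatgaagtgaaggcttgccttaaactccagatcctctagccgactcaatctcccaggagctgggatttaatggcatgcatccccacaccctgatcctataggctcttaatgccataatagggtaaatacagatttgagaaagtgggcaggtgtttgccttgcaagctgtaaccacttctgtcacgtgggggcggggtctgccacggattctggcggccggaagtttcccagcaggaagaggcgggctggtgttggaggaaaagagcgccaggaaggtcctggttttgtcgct
The capitals in *Mcm5* are a pair of overlapping matches, TTTCGCGC from 153 bases before the start site and, on the other strand, GCGCCAAA from 149 bases before it. *Hells* held TTTCCCGC from 62 bases before its RefSeq start site, which by GENCODE M21 is inside the gene. The *Rrm2* and *Tyms* windows held none of these letters. Whether a match goes with the lineage difference described below was not tested. Matches were held by *Mcm5*, *Hells*, *Pola1* and *Uhrf1*, which were clearly lower in CD45.2+ plasmablasts, and by *Cdt1*, which was not called. None was held by *Dut*, *Rrm1*, *Tk1*, *Slbp*, *Pcna* and *Orc6*, also clearly lower, or by *Tyms*, which was not called.

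States were set by gates on other genes, so that no member defined the cells in which it was measured. Plasma-lineage cells had at least 100 *Jchain* UMIs (unique molecular identifiers, each a counted transcript) per 10000 UMIs of the cell (CP10K). GC-like cells lay below this gate, had at least 2 UMIs over 11 GC genes such as *Bcl6* and *S1pr2*, and had more of them than of 9 early, activated or memory (E/A/M) genes such as *Ighd* and *Klf2*. Cycling cells had at least 2 UMIs of *Mki67* and *Top2a* together, and non-cycling cells had 0. Of 9692 kept cells, the CD45.2+ sort of the wt/wt group held 261, 367 and 335 cycling GC-like cells and 87, 164 and 146 cycling plasmablasts in its 3 mice. The CD45.1+ sort held 77 to 142 cycling GC-like cells and 10 to 97 cycling plasmablasts in each of 6 mice. The mRNA libraries had 38 barcodes in common, of which 6 were kept in both sorts.

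The genotype labels went against the sex of the donors. The study's notes give male wt/wt and female cpm/cpm donors. *Xist* UMIs, which mark female cells, were found in 97.7% and Y-linked UMIs in 3.56% of the 6286 kept CD45.2+ cells labelled wt/wt, and in 60.9% and 57.9% of the 202 labelled cpm/cpm. Of 37 cycling GC-like cells labelled cpm/cpm, 20 had only *Xist*, 4 only Y-linked and 10 both kinds of UMI. Both labels of the CD45.2+ cells are therefore uncertain, and every CD45.2+ result here is one of cells labelled wt/wt or cpm/cpm. Comparisons of states were made within the cells of a label and do not set the labels against each other. The part of this mismatch in the results was not tested.

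By the gate itself, the 11 GC genes were high in GC-like cells, at 1650.3 to 1685 UMIs per 1000000 in cycling CD45.2+ cells of the 3 mice against 296 to 491 in cycling plasmablasts, and T cell genes were low in both. The 9 E/A/M genes, which GC-like cells were also gated on, were at 399.9 to 468 and 672 to 1435 in the same order. Genes outside the gates tell more. *Xbp1*, which drives the secretory program, was at 173 to 182 in cycling GC-like cells and at 2732 to 3210 in cycling plasmablasts. Marker lists of macrophages and erythroid cells summed to at most 2.41 CPM in either state. A list of 2 genes of naive follicular B cells was not near 0. It was at 149 to 191 CPM in cycling GC-like cells and at 64.2 to 104 in cycling plasmablasts. Non-cycling CD45.2+ GC-like cells had 474 to 761. Whether naive follicular cells were among the gated cells was not tested. Immunoglobulin transcripts made up a median of 35.9% of the UMIs of a CD45.2+ cycling plasmablast and 2.43% of those of a cycling GC-like cell. All levels but that of *Dock8* are therefore UMIs per 1000000 UMIs outside immunoglobulin genes and *Jchain* (CPM), summed over the cells of a mouse and state. A level of this kind is a share of RNA, and less transcript per cell cannot be told apart from more of all other RNA.

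Summed over the 41 members, the level in CD45.2+ wt/wt cycling GC-like cells was 6819, 6332 and 6346 CPM in the 3 mice. In cycling plasmablasts of the same mice it was 2460.4, 2057 and 2599, so every plasmablast value lay below every GC-like value. The GC-like level was 2.44 to 3.08 times the plasmablast level within a mouse. Non-cycling GC-like cells stood at 2679, 1735 and 2147, next to the cycling plasmablasts, and non-cycling plasma cells at 893, 947 and 802. Cycling E/A/M-like cells were at 3253, 2634 and 3198 and their non-cycling counterparts at 768, 896 and 784. Non-cycling T cells of the same sort, a pool of 50 cells, gave 1070 CPM from 193 member UMIs in a cell type outside the B-cell states.

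In the CD45.1+ sort the lowest, median and highest of 6 mice were 5728, 6858 and 7040.2 CPM for cycling GC-like cells and 2359.7, 2981 and 5138 for cycling plasmablasts. The highest plasmablast value came from a mouse of the cpm/cpm group with 10 such cells. The within-mouse ratio of GC-like to plasmablast cells ran from 1.33 to 2.92 with a median of 2.19. Non-cycling GC-like cells were at 1125 to 1982 and non-cycling plasma cells at 363 to 599, below all cycling plasmablast values of that sort. A pool of 39 non-cycling T cells gave 782.

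**Figure D1:**
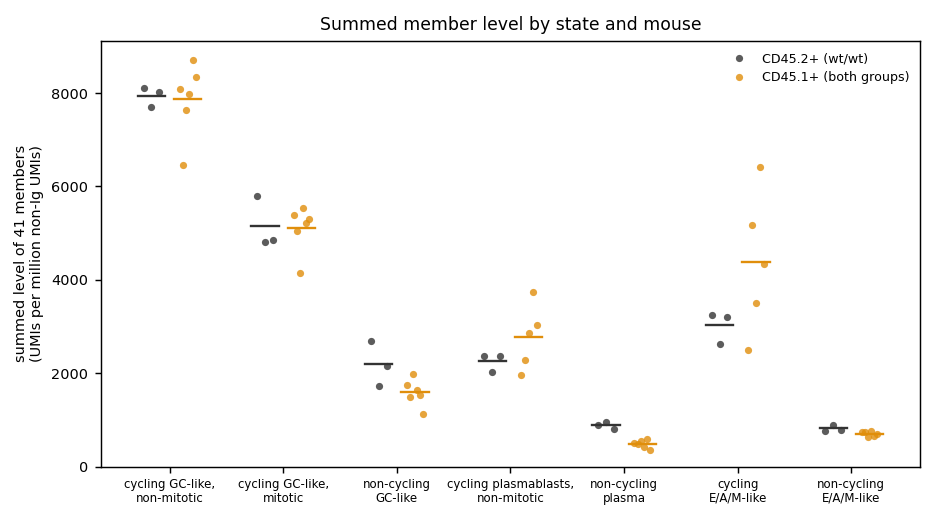
Summed level of the 41 members in CPM (vertical axis, from 0) for 7 states. Each point is 1 mouse and each bar the mean, for CD45.2+ cells of the wt/wt group (dark) and CD45.1+ cells of both groups (orange). Non-mitotic cycling GC-like cells stand highest, at 7692 to 8117 in CD45.2+ cells, and non-mitotic cycling plasmablasts at 2029 to 2377.

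Gene by gene, nearly the whole list was lower in cycling plasmablasts. In CD45.2+ wt/wt cells, 37 of the 40 members tested were lower and 0 higher in cycling plasmablasts than in cycling GC-like cells at an adjusted p under 0.05 (edgeR's quasi-likelihood test with mouse as block, Benjamini-Hochberg over all genes). Of all 7885 genes tested, 27.4% were called lower and 27.6% higher. The median log2 fold change was -1.23 over the members and -0.03 over all genes. With library size in place of TMM factors, the calls over all genes shifted from 2176 higher and 2158 lower to 1831 and 2733, and 38 members were lower. For 38 of the 41 members, all 3 plasmablast values lay below all 3 GC-like values. The same count over all genes was not made, so this separation has no background to be read against. *Orc1*, the largest subunit of the origin recognition complex, was under the filter on low counts, with 9.89, 9.71 and 10.9 CPM in GC-like cells and 6.42, 3.71 and 3.21 in plasmablasts. The 3 tested members that were not called were *Cdt1*, *Gins4* and *Tyms*. The filter can be passed through the GC-like libraries alone. Calls of *Gins1*, *Gins3* and *Prim2*, which were under the filter in CD45.1+ cells, are therefore no support on their own.

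The helicase subunits were all lower. *Mcm5* stood at 204, 192 and 196 CPM in cycling GC-like cells and at 41.7, 47.4 and 43.3 in cycling plasmablasts. The states did not overlap, and the fitted level was 4.01-fold lower in plasmablasts (SE on the log2 scale 0.170, adjusted p = 1.54e-14), the largest difference of the helicase. *Mcm3* fell from 234, 229.6 and 219 to 80.2, 50.1 and 56.2 (log2 fold change -1.78, SE 0.149). The other helicase genes had log2 fold changes between -1.58 (*Mcm4*) and -0.96 (*Mcm10*, which helps to activate the loaded helicase and is no part of the ring). In the CD45.1+ sort *Mcm5* was at 179, 216 and 252 (lowest, median, highest of 6 mice) in GC-like cells and at 32.5, 60.6 and 109.5 in plasmablasts, with a log2 fold change of -1.60 (SE 0.154). There 6 of the 7 helicase genes were called lower, and *Mcm10* gave -0.30 (adjusted p = 0.318).

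Origin licensing was less uniform. *Orc6*, a subunit of the origin recognition complex, was at 169, 158 and 146 CPM in CD45.2+ GC-like cells and at 67.4, 35.3 and 59.4 in plasmablasts (log2 fold change -1.43, SE 0.154, adjusted p = 3.06e-11). *Gmnn*, which encodes geminin, the inhibitor of CDT1, fell from 259.6, 235 and 226 to 127, 101 and 127 (-0.88, SE 0.126). *Cdc6*, which loads the helicase with CDT1, was lower as well (-0.80, SE 0.202, adjusted p = 0.000763). These 3 genes did not overlap between the states. *Cdt1*, the licensing factor itself, was at 35.1, 31.9 and 36.7 in GC-like cells and at 32.1, 27.9 and 42.5 in plasmablasts, so the states overlapped (log2 fold change 0.15, SE 0.198, adjusted p = 0.529). The pooled T cells gave 33.3 for *Cdt1* on 6 UMIs, and that level lies within both ranges. Its CD45.1+ value was 0.16 (SE 0.244, adjusted p = 0.586), and there *Cdc6* was also not called (0.12, adjusted p = 0.674).

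Among the activators of the loaded helicase, *Cdc45* and *Gins1* to *Gins3* were called lower in CD45.2+ plasmablasts, with log2 fold changes from -0.96 (*Gins2*) to -0.64 (*Cdc45*). The calls of *Gins1* and *Gins3* are no support on their own, as above. *Gins4* was at 45.3, 41.9 and 35.9 CPM in GC-like cells and at 28.9, 32.5 and 41.7 in plasmablasts, which overlap (-0.06, SE 0.187, adjusted p = 0.820). In CD45.1+ cells none of the 3 activators tested was called. Their values were -0.40 (*Gins2*, adjusted p = 0.0918), 0.16 (*Gins4*, 0.545) and 0.07 (*Cdc45*, 0.794), while *Gins1* and *Gins3* were under the filter.

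The genes that prime and extend the new strands followed the helicase. *Pola1*, the catalytic subunit of polymerase alpha, was at 105, 109 and 91.6 CPM in GC-like cells and at 33.7, 19.5 and 20.9 in plasmablasts (log2 fold change -1.96, SE 0.196, adjusted p = 2.85e-12). *Pcna*, the sliding clamp, fell from 358, 348 and 378 to 139.6, 124 and 157 (-1.22, SE 0.134). *Lig1*, the ligase that seals Okazaki fragments, fell from 339, 313 and 309 to 112, 72.4 and 117 (-1.54, SE 0.139). In none of the 3 did the states overlap. The primase genes *Prim1* and *Prim2*, the clamp loader genes and the RPA genes were all called lower, with the loader between -1.54 (*Rfc3*) and -0.78 (*Rfc4*) and RPA between -1.38 (*Rpa3*) and -0.48 (*Rpa2*). *Fen1*, the flap endonuclease, had a small difference, from 132, 119 and 118 to 88.3, 78.9 and 96.3 (-0.33, SE 0.132, adjusted p = 0.0305). In CD45.1+ cells *Rfc4*, *Rpa2* and *Fen1* were not called, with log2 fold changes of -0.12, -0.09 and 0.23.

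Nucleotide supply split in an uneven way. *Dut*, the dUTPase that keeps uracil out of DNA, was at 774, 683 and 666 CPM in CD45.2+ GC-like cells and at 156, 184 and 190.2 in plasmablasts (log2 fold change -1.84, SE 0.120, adjusted p = 1.17e-18). *Rrm1*, the large subunit of ribonucleotide reductase, fell from 182, 176 and 199 to 53, 39.9 and 44.9 (-1.91, SE 0.156). *Tk1*, the cytosolic thymidine kinase, fell from 74.7, 82.1 and 70.6 to 28.9, 16.7 and 17.7 (-1.78, SE 0.209). None of these 3 overlapped between the states. *Rrm2*, the small subunit of the same reductase as *Rrm1*, was at 230.3, 221 and 217 in GC-like cells and at 119, 133 and 217 in plasmablasts, where the third mouse stood next to the GC-like values (-0.36, SE 0.138, adjusted p = 0.0253). *Tyms*, thymidylate synthase, was at 67.2, 55.5 and 60.7 against 22.5, 39 and 61.8 and was not called (-0.34, SE 0.185, adjusted p = 0.119). Both calls turned on the processing. Over 21 settings, the main one among them, *Rrm2* was called in 13 and *Tyms* in 5. Their log2 fold changes ran from -0.71 to 0.28 and from -0.77 to 0.23.

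In CD45.1+ cells these last genes were called in the other direction. *Rrm2* was at 224, 243 and 315 CPM (lowest, median, highest of 6 mice) in cycling GC-like cells and at 235, 355 and 694 in cycling plasmablasts (log2 fold change 0.72, SE 0.121, adjusted p = 5.79e-07). *Tyms* was at 51.4, 75.8 and 113 against 76.2, 94.6 and 228 (0.63, SE 0.157, adjusted p = 0.000437). The ranges of both genes overlap between the states. *Dut*, *Rrm1* and *Tk1* were lower in CD45.1+ plasmablasts, by -1.34, -1.53 and -1.85 on the log2 scale. With cycling cells limited to 4 to 12 gate UMIs in both lineages, a range chosen after the data were seen, *Rrm2* gave 0.19 (adjusted p = 0.499) and *Tyms* -0.10 (adjusted p = 0.842).

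The chromatin genes had the largest median difference of any role, -1.95 in CD45.2+ and -2.09 in CD45.1+ cells on the log2 scale. *Hells*, a chromatin remodeler needed for DNA methylation, was at 309, 279.6 and 257 CPM in CD45.2+ GC-like cells and at 67.4, 51.1 and 58.6 in plasmablasts (log2 fold change -2.12, SE 0.147, adjusted p = 1.27e-17). *Uhrf1*, which reads hemimethylated DNA, fell from 181, 161 and 158 to 41.7, 36.2 and 38.5 (-1.95, SE 0.149). *Dnmt1*, the maintenance methyltransferase, fell from 392, 355 and 369 to 136, 84.5 and 104 (-1.68, SE 0.136). The states were apart in all 3. In the CD45.1+ sort the same genes gave -2.09, -2.28 and -1.90, and no GC-like mouse overlapped a plasmablast mouse, *Hells* being at 229.9 to 284 against 31 to 73. *Slbp*, which binds the stem-loop of histone mRNA, fell from 338, 303 and 289.7 to 89.9, 89.1 and 99.5 in CD45.2+ cells (-1.59, SE 0.131). *Clspn*, the checkpoint adaptor claspin, and *Dtl*, which directs the destruction of CDT1, were lower by -1.60 and -1.26.

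**Figure D2:**
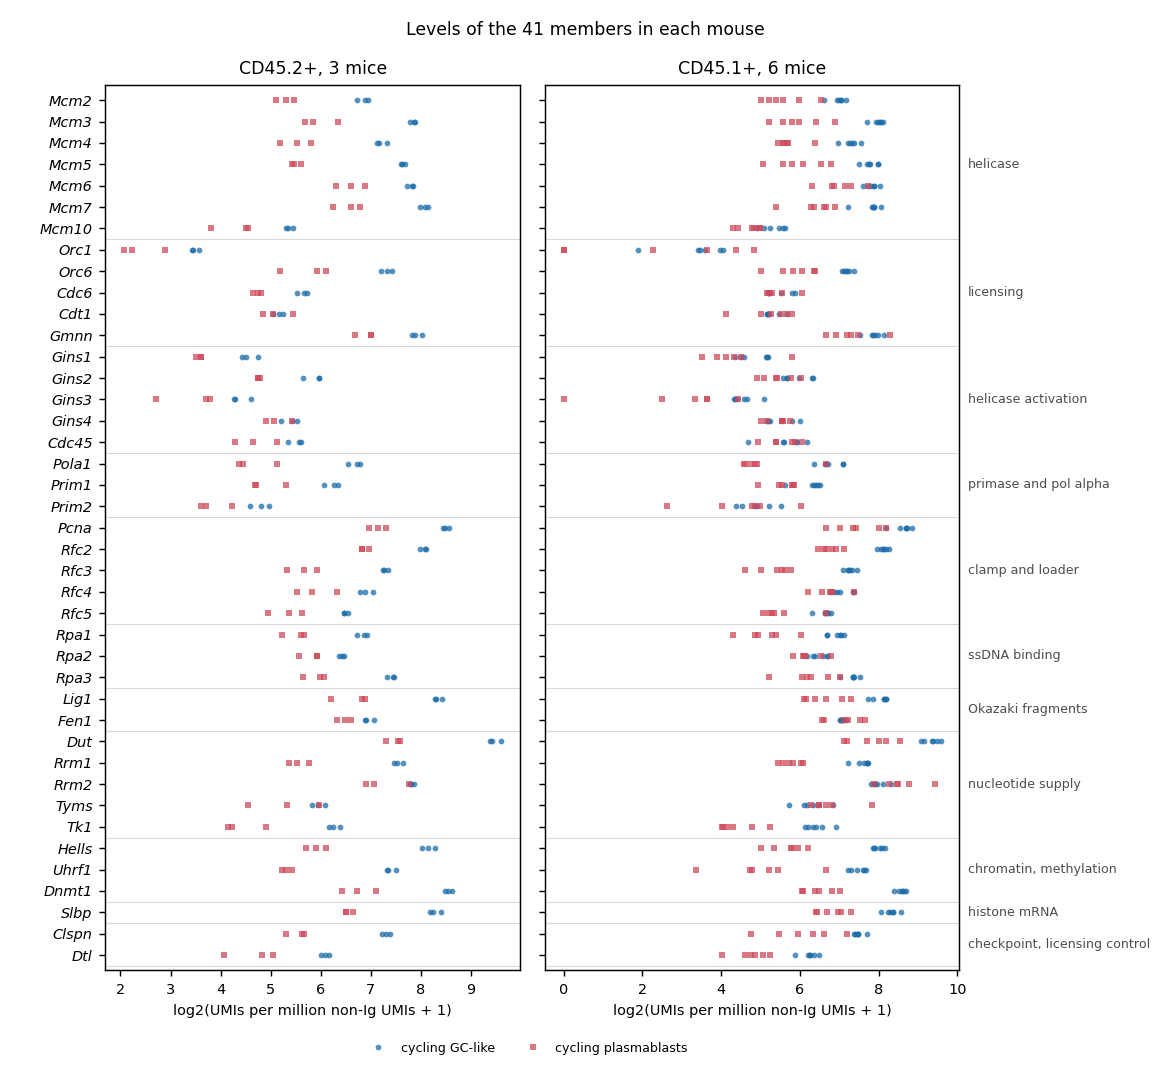
Level of each member as log2(CPM + 1) in each mouse, for cycling GC-like cells (blue circles) and cycling plasmablasts (red squares), in CD45.2+ cells of 3 wt/wt mice (left) and CD45.1+ cells of 6 mice (right). On the left the red squares lie to the left of every blue circle for 38 of the 41 members, on the right for 20. The same was not counted over all genes.

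Over the list, 26 members were lower and 2 higher of the 37 tested in CD45.1+ cells, where 37.6% of all 5316 genes tested were called lower and 28.1% higher. The median log2 fold change was -1.12 over the members and -0.18 over all genes. For 20 of the 41 members all 6 plasmablast values lay below all 6 GC-like values, and 24 were lower in plasmablasts within each of the 6 mice. Neither was counted over all genes. The CD45.1+ cells were not used in the CD45.2+ test, though they came from the same animals. The 26 members lower in both made up 70.3% of the members called lower in CD45.2+ cells and 100% of those in CD45.1+ cells. The overlap of calls over all genes was not counted.

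**Figure D3:**
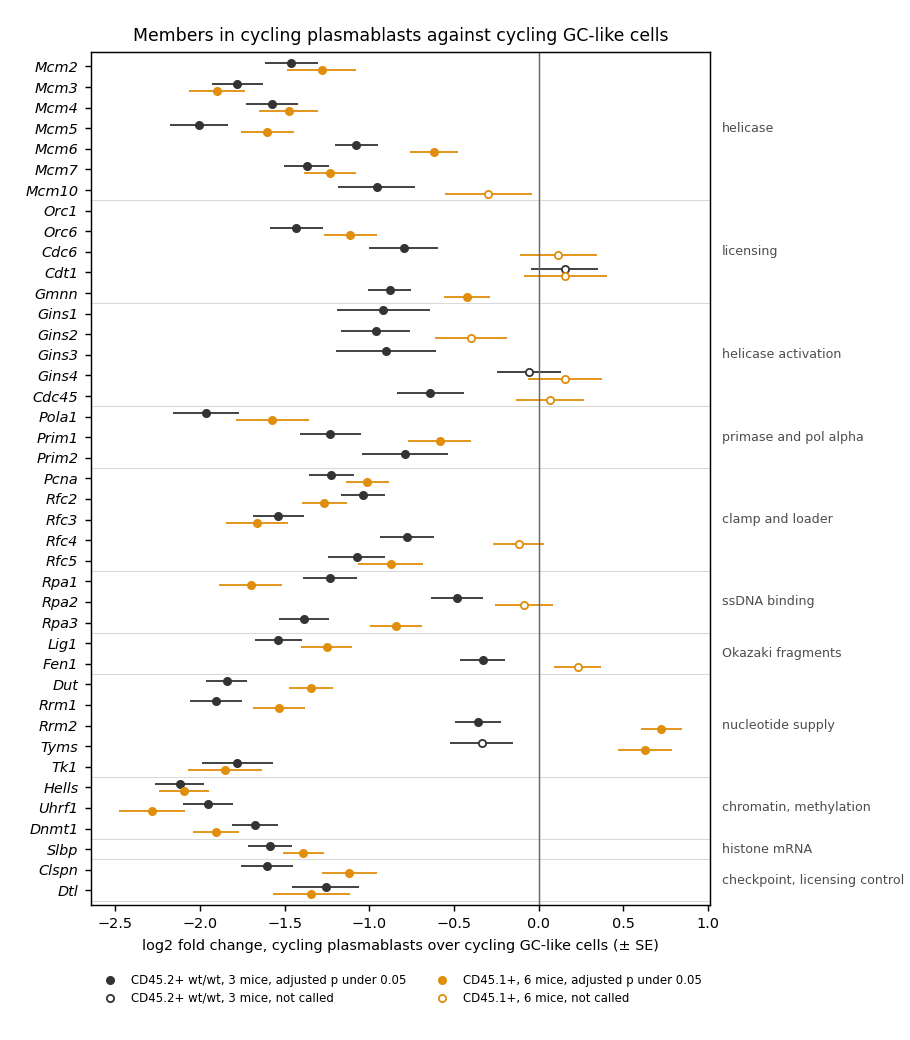
Log2 fold change of cycling plasmablasts over cycling GC-like cells (horizontal axis, bars are ± SE) for each member, in CD45.2+ cells of 3 wt/wt mice (dark) and CD45.1+ cells of 6 mice (orange). Filled points have an adjusted p under 0.05, and members under the filter on low counts have no point. *Rrm2* and *Tyms* are the filled orange points right of 0, at 0.72 and 0.63.

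Whether the lineage difference itself differed between the sorts was tested in the wt/wt group, which has both kinds of cell in the same 3 mice. It was called for 2 of 40 members, *Rrm2* (difference of log2 fold changes, CD45.2+ minus CD45.1+, -1.01, SE 0.213, adjusted p = 0.00283) and *Tyms* (-0.99, SE 0.294, adjusted p = 0.0442), against 1.07% of all genes called in that direction. With cycling cells set at 4 or more gate UMIs, or without the second mouse of the group, 0 members were called by the same edgeR test. At an unadjusted p under 0.05 by edgeR there were 10 of the 40 members and 1489 of all 7918 genes, and DESeq2 called 1 member.

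The cycling gate did not hold the same cells in each lineage. The median of *Mki67* and *Top2a* UMIs per cycling cell was 3 in CD45.2+ plasmablasts and 15 in CD45.2+ GC-like cells, and 5 and 11 in CD45.1+ cells. The gate counts UMIs at any depth, and depth differed. Median UMIs outside immunoglobulin genes were, in the same order, 6302 and 10192, and 7645 and 7029. Non-cycling CD45.2+ plasma and GC-like cells had 4041 and 4860.5. The part of depth in the gate was not tested. Only 2 or 3 gate UMIs were found in 225 of 397 CD45.2+ plasmablasts (56.7%) and in 125 of 963 GC-like cells (13%). When both lineages were limited to 4 to 12 gate UMIs, 31 of 39 tested members were lower in CD45.2+ plasmablasts, where 15.8% of all genes were, and 26 of 30 in CD45.1+ plasmablasts, where 28.5% of all genes were. No member was higher in either sort under that limit. With cycling cells set at 4 or more gate UMIs, 26 of 40 were lower in CD45.2+ plasmablasts (21.1% of all genes) and *Cdt1* was higher (log2 fold change 0.54, adjusted p = 0.0415), while *Rrm2* gave 0.28 (adjusted p = 0.0836). The part of the remaining difference in gate UMIs was not tested.

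The share of mitotic cells also differed. Cells with at least 10 CP10K over 9 mitotic genes such as *Ccnb1* and *Plk1* made up 49.6% of CD45.2+ cycling GC-like cells and 13.6% of cycling plasmablasts. CP10K counts immunoglobulin UMIs too, which take a larger share in plasmablasts. A plasmablast thus needs a higher mitotic share of its other UMIs to pass, and these percentages are not on the same scale. Among non-mitotic cycling cells, 39 of 41 members were lower in plasmablasts (23.9% of all genes were), with a median log2 fold change of -1.59 over the members and -0.00 over all genes. *Hells* gave -2.60 (SE 0.161), *Mcm5* -2.49 (SE 0.163), *Uhrf1* -2.38 (SE 0.159) and *Rrm2* -0.74 (SE 0.155, adjusted p = 0.000109). *Tyms* was lower at -0.56 (adjusted p = 0.0307), and *Orc1*, which passed the filter here, at -1.61 (adjusted p = 0.00606). The filter can be passed through the GC-like libraries alone, and *Orc1* was low in plasmablasts. Its call, one of the 39, is therefore no support on its own. *Cdt1* (-0.14, adjusted p = 0.612) and *Gins4* (-0.20, adjusted p = 0.473) were again not called. Within a mouse the summed level was 3.37 to 3.79 times as high in non-mitotic GC-like cells as in non-mitotic plasmablasts. Against all GC-like cells, whatever their gate UMIs, 33 of 41 members were lower in cycling plasmablasts, where 22.2% of all genes were.

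Within GC-like cells the members followed the cycle. Of 40 tested in CD45.2+ wt/wt cells, 39 were higher in cycling than in non-cycling GC-like cells and 0 lower, where 10.2% of all genes were higher. The median log2 fold change was 1.78 over the members and -0.05 over all genes. *Rrm2* rose from 47.4, 19.4 and 10.5 to 230.3, 221 and 217 CPM (log2 fold change 3.39, SE 0.311, adjusted p = 2.71e-12). *Clspn* rose from 23.7, 15.1 and 15.8 to 166, 148 and 157 (3.22, SE 0.313). In neither gene did the states overlap. *Gins2* and *Mcm10* had larger fitted changes (3.79 and 3.76) that rest on 3 and 2 UMIs in all non-cycling GC-like cells together. *Rfc2* had the smallest called change (0.62, SE 0.169, adjusted p = 0.00567), and *Gins4* was not called (0.80, SE 0.349, adjusted p = 0.106).

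Cycling plasmablasts, in turn, stood above non-cycling plasma cells. Of 40 members tested, 32 were higher and 0 lower, where 6.19% of all genes were higher, with medians of 1.44 over the members and -0.03 over all genes. With at most 1 GC UMI allowed in plasmablasts, 21 were higher. *Clspn* gave the largest value (3.06, SE 0.349), from 1.75, 8.51 and 3.19 CPM in non-cycling cells to 38.5, 48.3 and 49.8. *Prim1* (2.72), *Cdc6* (2.59), *Cdc45* (2.58) and *Rfc4* (2.48) came next. The 8 members not called were *Mcm2*, *Cdt1*, *Gins1*, *Gins3*, *Gins4*, *Prim2*, *Tk1* and *Slbp*. Of these, *Tk1* was at 14, 16.1 and 12.8 in non-cycling and 28.9, 16.7 and 17.7 in cycling cells (0.42, SE 0.345, adjusted p = 0.532). The cycling change itself was not called different between the lineages for any of 40 members by edgeR, where 1.5% of all genes were called in either direction. Differences of log2 fold changes, plasma minus GC-like, ran from -1.71 to 0.74 with a median SE of 0.437. By edgeR 7 members and 942 of all 7885 genes had an unadjusted p under 0.05, and DESeq2 called 0 members. The same edgeR test called 4 members with at most 1 GC UMI allowed in plasmablasts, and 1 under each of 4 other alternatives.

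**Figure D4:**
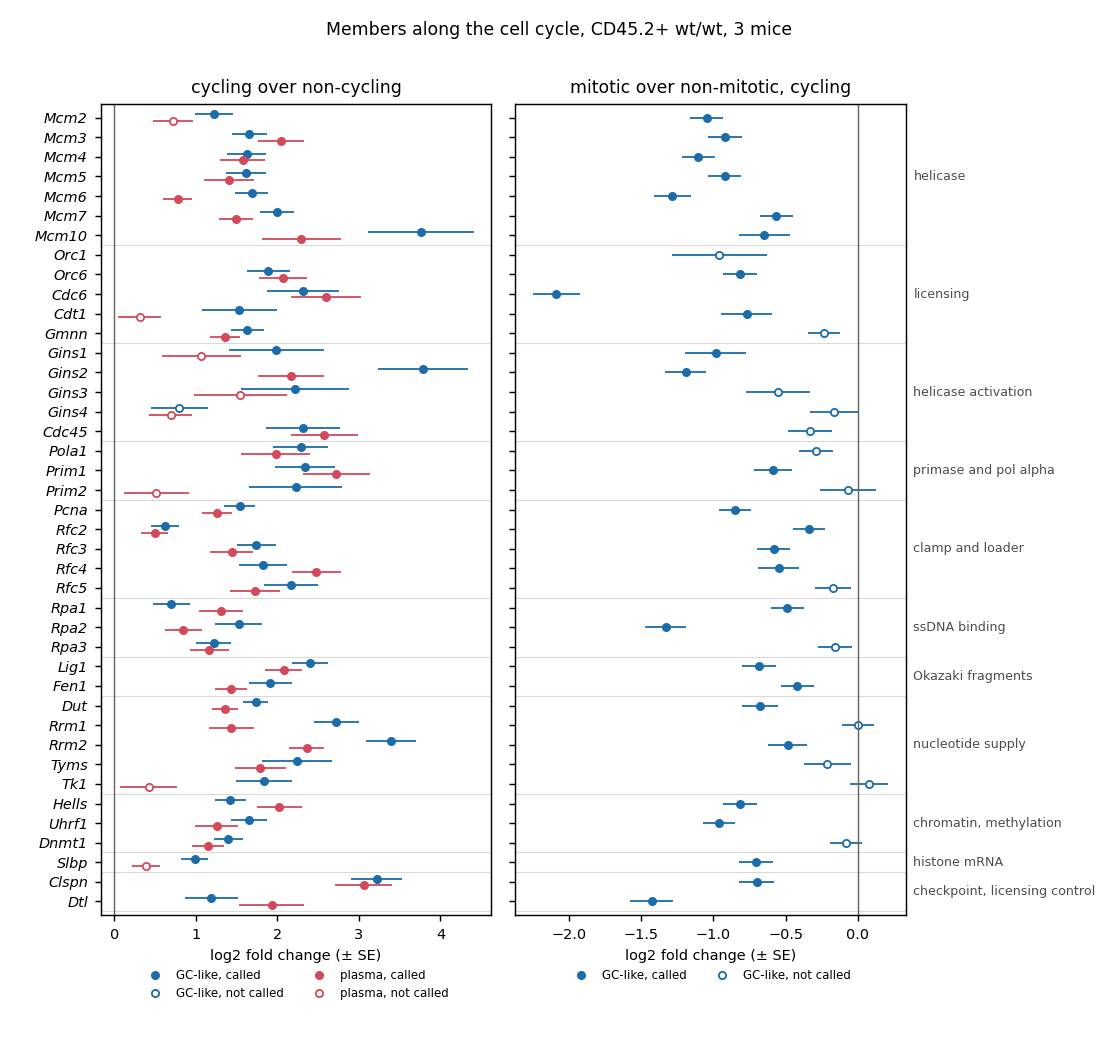
Log2 fold change (horizontal axis, bars are ± SE) of each member in CD45.2+ cells of 3 wt/wt mice, for cycling over non-cycling cells (left; GC-like in blue, plasma in red) and for mitotic over non-mitotic cycling GC-like cells (right). Filled points have an adjusted p under 0.05. On the left every point lies right of 0, and on the right the lowest is *Cdc6* at -2.09.

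Inside the cycling GC-like cells, mitotic cells had less of most members. Of 41 tested, 28 were lower and 0 higher in mitotic than in non-mitotic cells, where 3.26% of all genes were lower. The median log2 fold change was -0.65 over the members and -0.00 over all genes. *Cdc6* fell the most, from 84.7, 67.9 and 92.4 to 21.9, 19.9 and 15.6 CPM (-2.09, SE 0.164, adjusted p = 6.16e-13). *Dtl* fell from 105, 94.7 and 98.6 to 44.4, 35.2 and 31.8 (-1.43, SE 0.150), and *Rpa2* and *Mcm6* gave -1.33 and -1.28. All 3 mice moved in the same direction for these genes. *Rrm1* (0.00, SE 0.110), *Tk1* (0.08, SE 0.130) and *Dnmt1* (-0.08, SE 0.112) were not called. The summed level was 8117, 7692 and 8012 in non-mitotic and 5803, 4816 and 4855 in mitotic GC-like cells. In plasmablasts it was 2366, 2029 and 2377 in non-mitotic and 2867, 2221 and 3152 in mitotic cells, of which there were 11, 16 and 27, and no test was made of that difference.

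In the study's genotype comparison no member was called, and the CD45.2+ labels are uncertain, as above. *Dock8* mRNA was at 98.2, 99.1 and 83.5 CPM in wt/wt and at 105, 99.3 and 95.7 in cpm/cpm CD45.2+ cells, and says nothing about a point mutation. The 41 members summed to 7580.5, 6773 and 7187 in 11, 10 and 16 cycling GC-like cells labelled cpm/cpm and to 6819, 6332 and 6346 in wt/wt. By edgeR 0 of 41 members were called, where 0.071% of all genes were in either direction. Log2 fold changes ran from -1.08 (*Orc1*, SE 0.971) to 0.55 (*Gins4*, SE 0.325) with a median SE of 0.215. *Mcm7* (0.38, adjusted p = 0.733) and *Rpa2* (0.53, adjusted p = 0.766) were the 2 with an unadjusted p under 0.05. Over all genes 491 of 8448 had such a p, and DESeq2 called 0 members.

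CD45.1+ cells, which are wt/wt in every recipient, give the background of that comparison. Between the recipient groups edgeR called 0 of 40 members in cycling GC-like cells, where 0.259% of all genes were called in either direction. The log2 fold changes ran from -0.28 to 0.58. By edgeR 6 members and 465 of all 6571 genes had an unadjusted p under 0.05, and DESeq2 called 0 members. CD45.2+ cycling plasmablasts labelled cpm/cpm numbered 1, 1 and 2 per mouse, too few for a level.

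Other genes of replication and nucleotide metabolism were counted from a list of 57. In CD45.2+ cells 44 of 56 tested were lower and 3 higher in cycling plasmablasts than in cycling GC-like cells, with a median log2 fold change of -1.07, where 27.4% of all genes were lower and 27.6% higher. The largest fall was that of *Cdca7*, a partner of HELLS (-2.64, SE 0.198), and other large falls were those of *E2f8*, an E2F repressor (-1.94), *Ccne2*, a cyclin E (-1.91), *Chaf1b*, a histone chaperone (-1.80), and *Pclaf*, a PCNA-binding protein (-1.62). The 3 higher genes were *Cad*, which starts pyrimidine synthesis (0.94, SE 0.201, adjusted p = 8.19e-05), *Samhd1*, which breaks down deoxynucleotides (0.47), and *Rnaseh2c* (0.40), a subunit of RNase H2. In CD45.1+ cells 35 of 50 were lower and 5 higher, with a median of -0.78, where 37.6% of all genes were lower and 28.1% higher. *Cad* (1.49), *Samhd1* (0.27) and *Rnaseh2c* (0.69) were higher there too, as were *Pole3* (0.87) and *Pold2* (0.58), and *Cdca7* fell by 3.73 on the log2 scale.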

How the data were processed

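MD4 B cells of 6 mice, sorted by CD45 allotype, were profiled by droplet-based 3' sequencing with hashtags. The authors mapped reads to mm10 with Cell Ranger 5.0.1, called cells, and deposited UMI counts per gene and barcode and hashtag counts per barcode, both without normalization. A hashtag table of the series gave the mouse and group of each hashtag, and all of its columns were used. CD45.2+ barcodes numbered 24241 in the mRNA and 17148 in the hashtag matrix, with 14617 in both, and CD45.1+ barcodes 5232, 5246 and 4857.

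Hashtags were assigned with HTODemux (Seurat 5.3.0, quantile 0.99). Singlets with under 10% mitochondrial UMIs and 100 to 5500 genes were kept, 6488 CD45.2+ and 3204 CD45.1+ cells. By the same stated filters the study kept many more CD45.2+ cells and slightly fewer CD45.1+ cells, and the reason for this gap was not found. Scrublet (scanpy 1.11.5) called only 4 doublets in each sort and had not worked, and an alternative dropped the 6% of cells that scored highest. States were gates on marker genes, and 1 gate UMI placed a cell in neither the cycling nor the non-cycling group. T cells (2 or more UMIs over 4 genes) were set apart first.

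UMIs were summed per mouse and state with at least 10 cells, without immunoglobulin genes and *Jchain*, and tested over all genes by edgeR 4.0.16 (quasi-likelihood, TMM, filterByExpr, Benjamini-Hochberg at 0.05, R 4.3.3), with DESeq2 1.42.0 as second tool. Summed counts per mouse and state ran from 83271 to 3704910 in the CD45.2+ wt/wt test, so low genes in small groups are imprecise. SE is the log2 fold change divided by the root of its F. The mouse was a block where states of the same animals were compared, since the states come from the same spleen. With the block, p-values rest on the spread left after differences between mice are removed, shared over the states of a fit. In the genotype and recipient-group comparisons, which have no block, they measure the spread between mice. Neither kind covers the spread between libraries. The tests were also run on simulated counts without mouse effects, with the same spread for all genes and no filter. That run could not check the block, the spread of single genes or the filter.

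All 41 members are named, with up to 6 called genes of the 57-gene list by size of change in each direction. A gene that this rule would name is not reported here. The members, lists and gates were chosen with earlier results of these data known. The gate of 4 to 12 UMIs was added after the data were seen. Exons of 2 members, *Mcm7* and *Rpa1*, overlap another gene on the same strand in GENCODE M21 (GRCm38), and their counts are uncertain to that extent. UMIs count transcript ends, so levels are not compared between genes.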

Additional observations from a re-analysis of the deposited data

Results flagged for a closer look

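Of 84 groups of 6 CD45.1+ mice (1 per member and for the sum, in each lineage), 12 had a mouse far from the other 5 by Dixon's 95% limit, where chance gives about 1 in 20. In cycling GC-like cells these were *Mcm7* in the second wt/wt mouse (148 CPM, the others 228 to 265), *Gins3* (33.2, the others 19.2 to 24.2) and *Prim1* (48.1, the others 77.6 to 90.9) in the same mouse, and *Clspn* in the first cpm/cpm mouse (209, the others 166 to 178).

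In cycling plasmablasts the first cpm/cpm mouse, with 10 such cells, stood apart for *Mcm4* (82.1, the others 42.2 to 51.1), *Gmnn* (310.3, the others 99.4 to 176), *Gins1* (54.8, the others 10.3 to 21.7), *Pola1* (100.4, the others 23.0 to 29.3), *Rfc5* (100.4, the others 32.5 to 47.2), *Tyms* (228, the others 76.2 to 111) and *Uhrf1* (100.4, the others 9.29 to 42.2). These values rest on 6 to 34 UMIs each. *Cdc6* in the third cpm/cpm mouse was at 65.0 on 14 UMIs, the others at 34.6 to 45.6. Without the first cpm/cpm mouse, 26 of 37 members were lower and 2 higher in CD45.1+ cycling plasmablasts, as with it.

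The effect of the plasmablast state differed between the sorts of the wt/wt group for *Rrm2* (CD45.2+ minus CD45.1+, -1.01 on the log2 scale, adjusted p = 0.00283 by edgeR) and *Tyms* (-0.99, adjusted p = 0.0442). Each sort is 1 library, and the BCL2 transgene goes with the CD45.2+ sort, so these cannot be told apart.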

How the results depend on the processing

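Of members called in a comparison, 4397 values under the alternatives kept their direction and their side of the threshold, 166 lost the call and 4 turned: with cycling at 4 or more gate UMIs, *Fen1* (0.017, adjusted p = 0.938) and *Rrm2* (0.28, adjusted p = 0.0836) in CD45.2+ plasmablasts against GC-like cells and *Tyms* (0.056, adjusted p = 0.878) in the non-mitotic comparison, and with 4 to 12 gate UMIs *Tyms* in CD45.1+ cells (-0.10, adjusted p = 0.842). The causes were not tested. A minimum of 5 cells gave the same counts over all genes as the main setting in every comparison. A minimum of 20 cells did so in some. These repeats add no support to the values that held. Members not called in a comparison gave 3647 values, of which 108 passed the threshold (33 of them against all GC-like cells) and 350 changed sign. The counts of calls in CD45.2+ (37) and CD45.1+ plasmablasts (28) stayed within 1.5 times under every alternative run. Leaving out 1 wt/wt mouse gave 32 to 37 for CD45.2+. With hashtag values normalized per cell, 0 members were higher in CD45.1+ plasmablasts. Without the replicate block (mouse), 36 members were called in CD45.2+ and 28 in CD45.1+ cells, and the block changed 1 other count past 1.5 times, that of the difference between sorts. Cycling plasmablasts over non-cycling plasma cells gave 32 calls, and 21 with at most 1 GC UMI in plasmablasts. The difference of the cycling change gave 0 calls, but 1 with the 3-fold hashtag rule, 1 with *Jchain* at 200 CP10K, 1 without the highest Scrublet scores, 1 with per-cell hashtag values and 4 with at most 1 GC UMI. The difference between sorts gave 2, but 5 with the 3-fold hashtag rule, 5 with at most 1 GC UMI, 4 with *Jchain* at 50 CP10K, 4 with per-cell hashtag values, 1 with DESeq2, *Jchain* at 200 CP10K, without the highest Scrublet scores, with immunoglobulin genes kept, with library size only or with no replicate block, 0 with cycling at 4 gate UMIs, and 0 to 2 when 1 mouse was left out (0 without the second, 1 without the first).

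Library size in place of TMM moved the median of all genes from -0.03 to -0.17 in CD45.2+ plasmablasts against GC-like cells and from -0.18 to -0.36 in CD45.1+ cells. It moved the higher share of calls from 51.9% to 41.3% in the non-mitotic comparison, from 63.8% to 74.1% in cycling plasmablasts over non-cycling plasma cells, and from 79.2% to 92.7% in the difference between sorts. The comparison of genotypes was not run on cells picked by sex-linked UMIs. That pick took cpm/cpm cells with only Y-linked and wt/wt cells with only *Xist* UMIs, the reverse of the noted donor sexes. It left 1, 1 and 2 cpm/cpm cells. By the noted sexes, 20 cycling GC-like cells labelled cpm/cpm had only *Xist* and 0 labelled wt/wt had only Y-linked UMIs. The genotype comparison also gave no value with at least 20 cells or the stricter GC gate. The comparison of recipient groups gave none with per-cell hashtag values. Depth limits the cpm/cpm cells and the non-cycling GC-like cells (15 in the smallest mouse) most.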
